A study of Mus musculus with 22 samples.

Results

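Glutamate receptors and the auxiliary subunits that travel with them were followed as 1 group of genes through embryonic stem cells (ESCs), neural progenitor cells (NPCs), prefrontal cortex (PFC) and ventral striatum (STR) of the mouse. The group was a list of 34 genes, matched by Ensembl identifier to 34 of the 39179 genes counted in 22 RNA-seq libraries. It held 4 AMPA receptor subunits (Gria1 to Gria4), 5 kainate receptor subunits (Grik1 to Grik5), 7 NMDA receptor subunits (Grin1, Grin2a to Grin2d, Grin3a and Grin3b), the delta receptor Grid1, 7 metabotropic receptors (Grm2 to Grm8), 8 AMPA receptor auxiliary subunits (Cacng2, Cacng3, Cacng4, Cacng5, Cacng7, Cacng8, Cnih2 and Cnih3) and the kainate receptor auxiliary subunits Neto1 and Neto2. Other genes of these families were not analysed here.

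The study compared wild-type (WT) samples with samples lacking Phf8, an X-linked histone demethylase gene. The knockout (KO) allele was made with loxP sites and Cre, which removed exons that encode part of the catalytic JMJC domain, in every cell of the animal rather than in 1 cell type. All samples were on a B6x129SvJ background. PFC and STR were taken from WT and KO mice aged 2 months, with 3 samples of each genotype and region. NPCs were grown as a monolayer from WT and KO embryos at E16.5 (embryonic day), with 3 samples each, and ESCs were cultured on gelatin with 2 samples each. The labels describe the ESCs as blastocyst outgrowths, whereas the methods of the study describe KO ESC clones made by targeting the V6.5 line. Nothing in the labels says whether samples of a group came from separate animals or cultures, so p-values measure the spread between these samples, which may in part be technical.

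Glutamate is the main fast excitatory transmitter of the brain. AMPA, kainate and NMDA receptors are cation channels assembled from several subunits, and the metabotropic receptors act through G proteins. The Cacng proteins described here (transmembrane AMPA receptor regulatory proteins) and the cornichons Cnih2 and Cnih3 bind AMPA receptors and change their trafficking and gating, and Neto1 and Neto2 do the same for kainate receptors. In the cortex glutamate is released mainly by local projection neurons, whereas most striatal neurons are GABAergic and receive their glutamate from cortex, thalamus and other afferents.

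The promoters of 3 members are shown because the results turn on these genes: Grm2 was the member most raised in PFC over STR, Grik2 was lower in PFC than in STR, and Grik3 was the member called between KO and WT. Each line gives the 250 bases upstream of the transcript start from RefSeq on GRCm38.p6, 5′ to 3′ on the strand of the gene, with CG dinucleotides in capitals. They lie at chr9:106656110-106656359 on the minus strand (Grm2), chr10:49788755-49789004 on the minus strand (Grik2) and chr4:125490446-125490695 on the plus strand (Grik3).
Grm2: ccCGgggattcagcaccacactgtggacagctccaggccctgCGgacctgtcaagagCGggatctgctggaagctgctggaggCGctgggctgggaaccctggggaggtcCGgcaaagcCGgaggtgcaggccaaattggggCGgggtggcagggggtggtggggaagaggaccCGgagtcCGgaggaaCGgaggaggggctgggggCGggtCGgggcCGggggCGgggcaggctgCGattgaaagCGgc
Grik2: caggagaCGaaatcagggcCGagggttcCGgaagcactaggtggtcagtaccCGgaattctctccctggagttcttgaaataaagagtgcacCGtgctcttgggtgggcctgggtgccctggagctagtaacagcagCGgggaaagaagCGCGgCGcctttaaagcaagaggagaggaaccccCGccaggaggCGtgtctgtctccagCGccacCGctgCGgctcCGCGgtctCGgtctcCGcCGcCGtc
Grik3: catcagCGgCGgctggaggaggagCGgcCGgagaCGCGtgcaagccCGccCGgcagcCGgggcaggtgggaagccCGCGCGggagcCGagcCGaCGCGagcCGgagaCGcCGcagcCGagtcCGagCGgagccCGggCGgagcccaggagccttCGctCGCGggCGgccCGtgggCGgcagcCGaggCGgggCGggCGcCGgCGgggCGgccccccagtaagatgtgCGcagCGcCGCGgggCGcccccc
The window of Grik3 held 42 CG dinucleotides, a number reached by 0.865% of 32851 mouse promoter windows of the same length. The windows of Grm2 and Grik2 held 16 and 20, reached by 25.4% and 17.9% of windows. The motif GGGCGG, which contains a CG and was searched on both strands, occurred 6 times in the Grik3 window, 3 times in that of Grm2 and 0 times in that of Grik2. It occurred in 32.7% of all windows. TATAAA, searched in the same way and present in 12.4% of all windows, was found in none of these 3. A promoter was matched for 23 members with 28 starts, of which 22 starts held more CG dinucleotides than the median window, against 46.3% of all windows. These matches describe letters and not binding sites.

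Libraries held between 5898286 and 15539811 reads counted on genes, with the 12 brain libraries at 10148073 or fewer. Phf8 itself was lower in every KO library than in every WT library of the same tissue; in PFC its mean was 1.81 RPKM in KO and 4.63 RPKM in WT, where RPKM is reads per kilobase of merged exons, scaled to library size. The labelled tissues were checked with marker lists. In ESCs pluripotency markers summed to between 1737 and 2122 CPM (counts scaled to library size) and pan-neuronal markers to between 402 and 461 CPM. ESC replicates differed in both genotypes. Progenitor markers stood at 929 CPM in WT and 878 CPM in KO replicate 1, and at 2022 CPM and 2184 CPM in replicate 2. The 6 striatal projection neuron markers summed to between 1236 and 1390 CPM in WT STR and between 143 and 169 CPM in WT PFC. The 5 cortical projection neuron markers summed to between 370 and 539 CPM in WT STR, so cortical RNA was present there, and to between 804 and 1005 CPM in WT PFC. Pan-neuronal markers summed to at most 20.3 CPM in NPCs, where progenitor markers stood at 5619 CPM or more, and to at least 1195 CPM in brain. Glial markers were also high in NPCs. Oligodendrocyte precursor markers summed to between 3183 and 3952 CPM in NPCs and between 211 and 311 CPM in brain. Astrocyte markers summed to between 2897 and 6724 CPM in NPCs and between 747 and 888 CPM in brain. In the library of KO STR replicate 1 hypothalamic markers reached 202 CPM, against at most 35.1 CPM in the other 5 STR libraries, and cortical markers stood at 97.0 CPM. Thalamic markers stood at 181 CPM there, against 84.6 to 100 CPM in the other 5. Striatal projection neuron markers stood at 1015 CPM there, against 1195 to 1390 CPM in the other 5. Replicate 2 of the NPCs stood apart in both genotypes, with mature oligodendrocyte markers at 222 CPM in WT and 421 CPM in KO, against 1962 to 3246 CPM in the other 4 NPC libraries. Some of the results that rest on these libraries are also given without them.

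In WT PFC the 34 genes together summed to between 647 and 675 RPKM, and in WT STR to between 677 and 697 RPKM. A mean of at least 1 RPKM was reached by 31 members in both regions. Cnih2 led both regions, at 75.7 ± 11.4 RPKM (SD, n = 3) in PFC and 89.9 ± 8.31 RPKM in STR. Cacng7 followed in PFC at 57.9 ± 3.45 RPKM, then Gria1 at 48.9 ± 1.42 RPKM and Cacng3 at 46.7 ± 2.48 RPKM, whose samples overlapped. In STR the order was Gria1 at 63.9 ± 2.15 RPKM, Cacng7 at 53.0 ± 4.13 RPKM and Grik5 at 41.5 ± 1.14 RPKM. Of the 33 pairs of neighbours in this order, 12 were apart in all samples in PFC and 12 in STR. Grin2a, which encodes an NMDA receptor subunit common in the adult forebrain, averaged 0.798 RPKM in PFC and Grin3b 0.125 RPKM, and Grm6, the metabotropic receptor of retinal bipolar cells, had no counts in any of the 12 brain libraries.

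**Figure D1:**
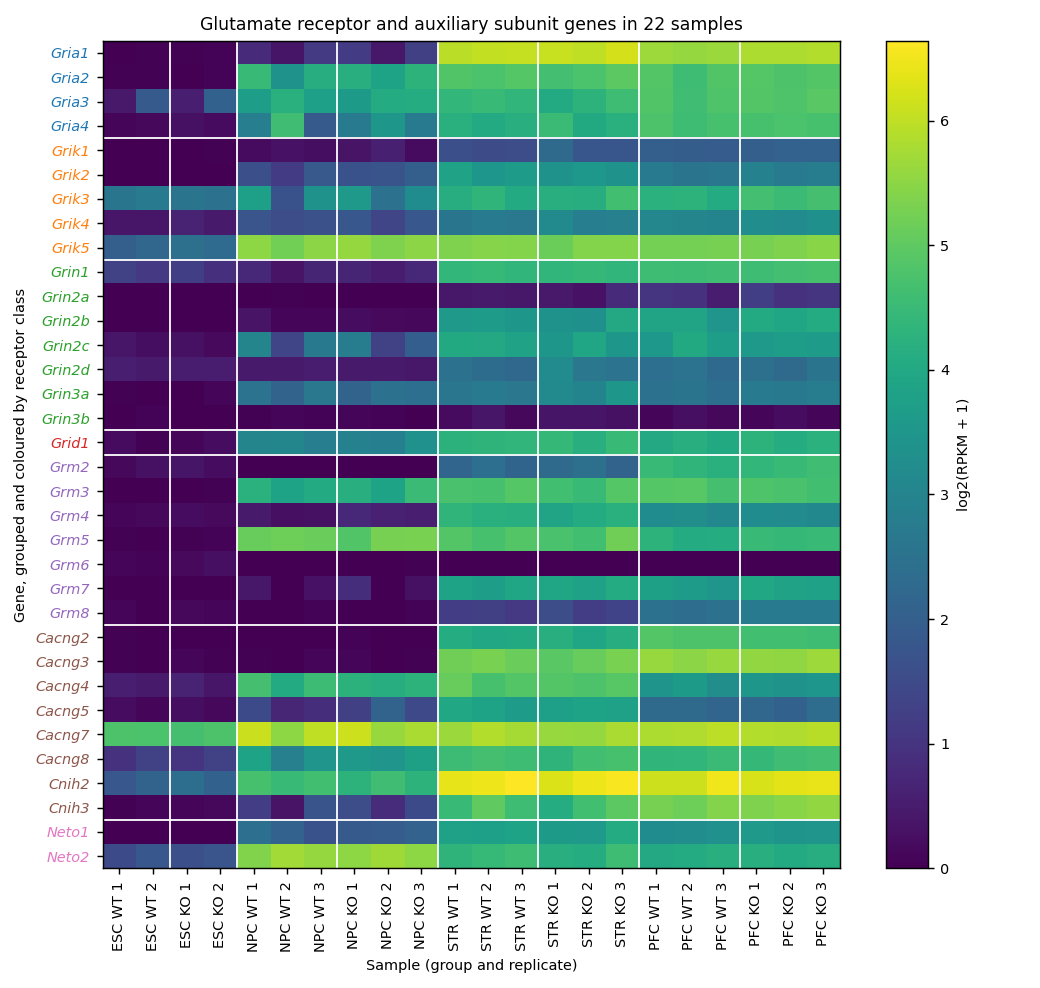
Heat map of the level of the 34 genes (rows, grouped by receptor class) in each of the 22 libraries (columns, grouped by tissue and genotype), as log2(RPKM + 1). Brain columns are filled across nearly all rows, with 31 members at 1 RPKM or more in WT PFC, whereas NPC columns are filled for 20 members and ESC columns for 8.

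PFC was first compared with STR within WT mice, to show which receptor subunits distinguish the regions. All 34 genes were examined, and 32 had enough reads for the test, Grin3b and Grm6 being left out. With edgeR's quasi-likelihood test and a Benjamini-Hochberg adjusted p under 0.05, 10 members were higher in PFC, 9 were lower and 13 did not pass, which is 19 of 32 beside 24.4% of all 15555 genes tested (13% higher and 11.4% lower). The members called higher were Gria3, Gria4, Grik1, Grik4, Grin2a, Grm2, Grm8, Cacng2, Cacng3 and Cnih3. Those called lower were Gria1, Grik2, Grid1, Grm4, Grm5, Cacng4, Cacng5, Neto1 and Neto2. The median log2 fold change over the 32 tested members was −0.05, beside −0.0076 over all genes. Less RNA per cell and fewer cells of a type cannot be told apart in whole tissue.

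Among the AMPA receptor subunits, Gria1 was lower in PFC, Gria3 and Gria4 were higher and Gria2 did not pass. Gria1, the GluA1 subunit of plastic synapses, stood at 61.4, 64.9 and 65.3 RPKM in the 3 WT STR samples and at 50.2, 47.4 and 49.3 RPKM in PFC. No PFC sample reached the lowest STR sample. Its log2 fold change was −0.41 (SE 0.08, edgeR adjusted p = 0.00275). Gria4, the GluA4 subunit abundant in fast-spiking interneurons, stood at 17.6, 15.8 and 17 RPKM in STR and at 26.8, 23.0 and 25.0 RPKM in PFC, with a log2 fold change of 0.54 (SE 0.08). Gria3 differed by 0.32 on the log2 scale (SE 0.09), with 19.8 to 21.1 RPKM in STR and 23.3 to 27.6 RPKM in PFC. This call was lost without STR replicate 1 (edgeR adjusted p = 0.0602), STR replicate 3 (edgeR adjusted p = 0.0869) or PFC replicate 1 (edgeR adjusted p = 0.0876). Gria2, whose GluA2 subunit makes the channel impermeable to calcium, ranged from 26.3 to 28.4 RPKM in STR and from 23.0 to 27.9 RPKM in PFC, and these ranges overlapped. As a share of the summed RPKM of Gria1 to Gria4, Gria1 held 49.7 ± 1.11% (SD, n = 3) in STR and 38.9 ± 1.48% in PFC. In KO, Gria1, Gria3 and Gria4 were called in the same directions, with log2 fold changes of −0.29, 0.56 and 0.45. The call of Gria1 was lost without KO PFC replicate 1 or 2 (edgeR adjusted p = 0.068 and 0.0666), and that of Gria4 without KO PFC replicate 1, 2 or 3 or KO STR replicate 3 (edgeR adjusted p = 0.0634, 0.0713, 0.062 and 0.0515). The share of Gria1 was 51.3% in KO STR and 40.8% in KO PFC. These shares were chosen after the values were seen and were not tested.

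Among the kainate receptor subunits, Grik2 was lower in PFC, Grik1 and Grik4 were higher and Grik3 and Grik5 did not pass. Grik2, which encodes GluK2, was on the minus strand of chromosome 10 (GRCm38 chr10:49094833-49788766) and stood at 13.3, 10.3 and 11.8 RPKM in WT STR against 5.84, 4.89 and 5.13 RPKM in PFC. Every STR sample was above every PFC sample. The log2 fold change was −1.18 (SE 0.11, edgeR adjusted p = 2.61e-05). In KO samples, which share no library with the WT fit, Grik2 stood at 9.46, 10.6 and 9.51 RPKM in STR and at 6.5, 5.79 and 6.05 RPKM in PFC, a log2 fold change of −0.72 (SE 0.08). The distance between regions was smaller in KO than in WT, and the test of that difference is given with the KO results. Grik1, the GluK1 gene, was at 2.10, 1.93 and 1.95 RPKM in WT STR and at 3.03, 2.86 and 2.83 RPKM in PFC, and Grik4, a subunit that needs GluK1 to GluK3 to form channels, rose from 5.30 ± 0.280 RPKM in STR to 7.15 ± 0.233 RPKM in PFC. Both passed the test in WT, with log2 fold changes of 0.52 (SE 0.12) and 0.41 (SE 0.09). In KO neither passed with all samples, at 0.08 and 0.29, and both passed without KO STR replicate 1, at 0.36 (edgeR adjusted p = 0.0467) and 0.42 (edgeR adjusted p = 0.0064). Grik3 and Grik5 did not pass in WT, at 17.4 and 17.2 RPKM for Grik3 and 37.3 and 41.5 RPKM for Grik5 in PFC and STR.

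Of the 6 NMDA receptor subunits tested, Grin2a alone passed in WT, and Grin1, Grin2a and Grin3a passed in KO. Grin2a, which encodes GluN2A (chr16:9567898-9995560, GRCm38), stood at 0.341, 0.388 and 0.341 RPKM in STR and at 1.03, 0.919 and 0.444 RPKM in PFC. The third PFC sample lay close to the STR samples and the other two well above them. The log2 fold change was 1.16 (SE 0.27, edgeR adjusted p = 0.00943), and 1.30 in KO (SE 0.34). In KO the call was lost without STR replicate 1 (1.18, edgeR adjusted p = 0.0721), without PFC replicate 1 (1.13, edgeR adjusted p = 0.0873) and without PFC replicate 3 (1.34, edgeR adjusted p = 0.0617). Grin1, the subunit common to all NMDA receptors, was at 20.2 ± 0.760 RPKM in WT STR and 23.0 ± 0.528 RPKM in PFC, and Grin2b, the GluN2B gene, at 11.0 ± 0.515 and 12.4 ± 2.14 RPKM. Neither passed in WT. In KO Grin1 passed at a log2 fold change of 0.24 (edgeR adjusted p = 0.0224), and the call was lost without STR replicate 1 (edgeR adjusted p = 0.0506), without PFC replicate 2 (edgeR adjusted p = 0.0793) and without PFC replicate 3 (edgeR adjusted p = 0.0892). Exons of Grin1, Grin2b and Grin2c overlap annotated genes on the other strand, and their reads cannot be told apart in libraries made without strand. The same holds for Cnih2, Cacng2, Grm7, Neto2, Grin3b and Grm6. Gria2, Gria3, Gria4, Grik4, Grid1, Grm8 and Cacng8 share exon bases with annotated genes on their own strand. Grin3a, a subunit that lowers calcium entry, ranged from 4.25 to 4.85 RPKM in WT PFC and from 5.06 to 5.82 RPKM in STR, with a log2 fold change of −0.26 (edgeR adjusted p = 0.0595) that passed with replicate numbers as a block (edgeR adjusted p = 0.0097). In KO it passed in the test without a block, at −0.59 (SE 0.12, edgeR adjusted p = 0.009). Grid1, the delta receptor, was at 15.9 ± 1.22 RPKM in WT PFC and 18.9 ± 0.702 RPKM in STR, and its adjusted p of 0.0297 from edgeR rose above 0.05 when any 1 of the samples STR 1, STR 2, STR 3, PFC 1 or PFC 3 was left out, with fold changes of −0.23 to −0.28.

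The metabotropic receptors held the largest difference of the set. Grm2, which encodes the presynaptic receptor mGlu2 (chr9:106643095-106656082, minus strand, GRCm38), stood at 3.52, 4.34 and 3.38 RPKM in the WT STR samples and at 21.2, 19.2 and 17.7 RPKM in PFC. The ranges were far apart, and the same held in KO at 3.36 to 4.49 RPKM in STR and 19.9 to 23.5 RPKM in PFC. The log2 fold change was 2.34 in WT (SE 0.12, edgeR adjusted p = 3.73e-07) and 2.43 in KO (SE 0.12). Grm3, the other group II receptor and one also made by astrocytes, was at 26.5 ± 1.96 RPKM in STR and 27.6 ± 2.63 RPKM in PFC and did not pass. Grm2 therefore held 12.5% of the summed RPKM of Grm2 and Grm3 in WT STR and 41.3% in PFC.

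Of the group III receptors, which act mostly at presynaptic terminals, Grm8 was higher in PFC and Grm4 lower. Grm8 (chr6:27275119-28135178) stood at 1.31, 1.40 and 1.15 RPKM in WT STR and at 4.56, 4.16 and 4.54 RPKM in PFC, with no overlap. The log2 fold change was 1.75 (SE 0.11). Grm4 (chr17:27422387-27521403) ran the other way, at 19.3, 17.5 and 17.3 RPKM in STR and 8.33, 8.66 and 7.52 RPKM in PFC, with a log2 fold change of −1.16 (SE 0.09). Grm7, the most widely expressed of the group, ranged from 11.9 to 13.9 RPKM in STR and from 10.1 to 12.7 RPKM in PFC and did not pass. Grm5, the group I receptor mGlu5, was at 28.1, 25.2 and 28.3 RPKM in STR and at 18.5, 16.1 and 16.4 RPKM in PFC, and its log2 fold change was −0.70 (SE 0.09, edgeR adjusted p = 2.08e-04). In KO STR Grm5 spread from 23.6 to 35.5 RPKM, and the log2 fold change was −0.45 (SE 0.13, edgeR adjusted p = 0.0331). That call was lost when PFC replicate 1, 2 or 3 was left out, at −0.46, −0.43 and −0.46 with edgeR adjusted p = 0.0958, 0.115 and 0.0981.

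The auxiliary subunits of AMPA receptors differed in type between the regions. Cacng4, encoding TARP γ-4 (chr11:107732357-107794557), stood at 33.1, 25.2 and 28.1 RPKM in WT STR and at 9.90, 11.3 and 8.78 RPKM in PFC. Cacng5, encoding TARP γ-5 (chr11:107874605-107915055), stood at 14.6, 13.4 and 11.6 RPKM in STR and at 3.92, 3.93 and 3.50 RPKM in PFC. Both genes lie near one another on chromosome 11, and for each of them every PFC sample was far below every STR sample. Their log2 fold changes were −1.55 (SE 0.12) and −1.82 (SE 0.12), and −1.50 and −1.86 in KO. Cacng2, encoding stargazin, moved the other way, from 16.1, 14.4 and 15.5 RPKM in STR to 28.0, 26.7 and 26.4 RPKM in PFC, with a log2 fold change of 0.79 (SE 0.08). Cacng3, encoding TARP γ-3 and one of the most abundant members, was higher in PFC by 0.35 on the log2 scale (SE 0.08), a call lost without WT STR replicate 3 (edgeR adjusted p = 0.0504). Cacng7 and Cacng8, encoding TARP γ-7 and γ-8, did not pass in WT. As a share of Cacng2, Cacng3, Cacng4 and Cacng8 together, Cacng4 held 27.8% in WT STR and 9.62% in PFC, and Cacng2 held 14.8% in STR and 25.9% in PFC.

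Cnih3 stood at 21.6, 31.5 and 22.9 RPKM in WT STR and at 37.6, 35.1 and 41.2 RPKM in PFC, with a log2 fold change of 0.56 (SE 0.13, edgeR adjusted p = 0.0119). Cnih2 overlapped between the regions, at 82.4 to 98.8 RPKM in STR and 68.9 to 88.9 RPKM in PFC. Its log2 fold change of −0.28 passed with replicate numbers as a block (edgeR adjusted p = 0.00485), where Grin3a and Cacng8 (−0.23, edgeR adjusted p = 0.0306) were also called, for 22 members in all. That fit called 5405 of all genes, against 3791 without the block. Without WT PFC replicate 3, Cnih2 (−0.41, edgeR adjusted p = 0.0059), Cacng8 (−0.28, edgeR adjusted p = 0.0399) and Grin2b (0.29, edgeR adjusted p = 0.0159) passed, and without WT PFC replicate 2 Grin2c did (−0.37, edgeR adjusted p = 0.0368). Neto1 and Neto2, the kainate receptor partners, were both lower in PFC in WT. Neto1 stood at 12.9, 12.4 and 13.6 RPKM in STR and 8.46, 8.59 and 9.24 RPKM in PFC, a log2 fold change of −0.59 (SE 0.08). Neto2 changed by −0.40 (SE 0.09). In KO neither passed, at −0.33 and −0.22.

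**Figure D2:**
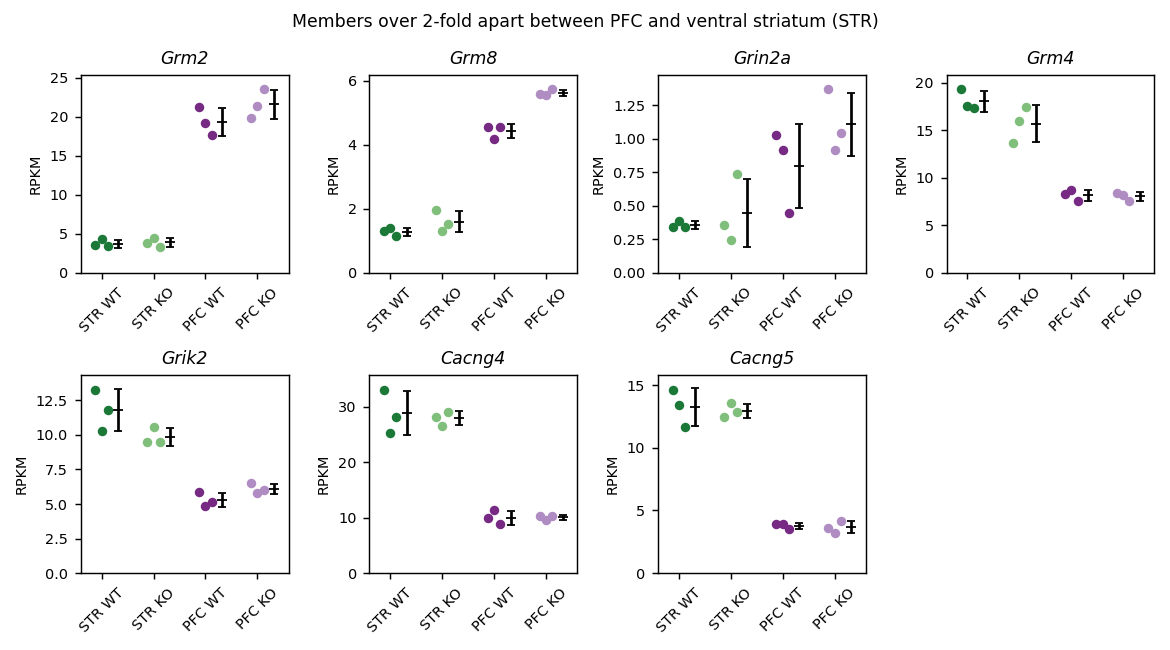
Level in RPKM of the 7 members that passed the test in WT with more than 2-fold difference (Grm2, Grm8, Grin2a, Grm4, Grik2, Cacng4 and Cacng5), 1 panel each, in STR WT, STR KO, PFC WT and PFC KO. Points are samples and the lines with bars are the mean ± SD of 3 samples. Grm2 sits between 3.36 and 4.49 RPKM in STR and between 17.7 and 23.5 RPKM in PFC.

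More than 2-fold difference with an adjusted p under 0.05 was found for 7 members in WT, beside 8.31% of all genes, and for 5 in KO, beside 8.49%. In KO 16 of 32 members were called between the regions, 9 higher and 7 lower in PFC, beside 27.7% of all 15538 genes tested (13.8% higher and 13.9% lower). Of these, 8 higher and 6 lower members were called in WT as well. They made up 8 of the 10 and 6 of the 9 WT calls, and 8 of the 9 and 6 of the 7 KO calls. Grik1, Grik4, Grid1, Neto1 and Neto2 passed in WT and not in KO, and Grin1 and Grin3a in KO and not in WT. With replicate numbers as a block the KO count was 20, with Grik3 (0.30, edgeR adjusted p = 0.0401), Grin2b (0.43, edgeR adjusted p = 0.0269), Cacng7 (0.19, edgeR adjusted p = 0.0345) and Grid1 (−0.19, edgeR adjusted p = 0.0446) added. That fit called 4761 of all genes, against 4301 without the block. Leaving out any 1 of the PFC KO samples gave 12 calls each time. Without KO STR replicate 3, Grik3 (0.47, edgeR adjusted p = 0.00124), Grin2b (0.67, edgeR adjusted p = 3.34e-04), Cacng7 (0.26, edgeR adjusted p = 0.00864) and Grin2d (−0.63, edgeR adjusted p = 0.0449) were called, and without KO STR replicate 2 Grid1 was (−0.27, edgeR adjusted p = 0.0328).

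**Figure D3:**
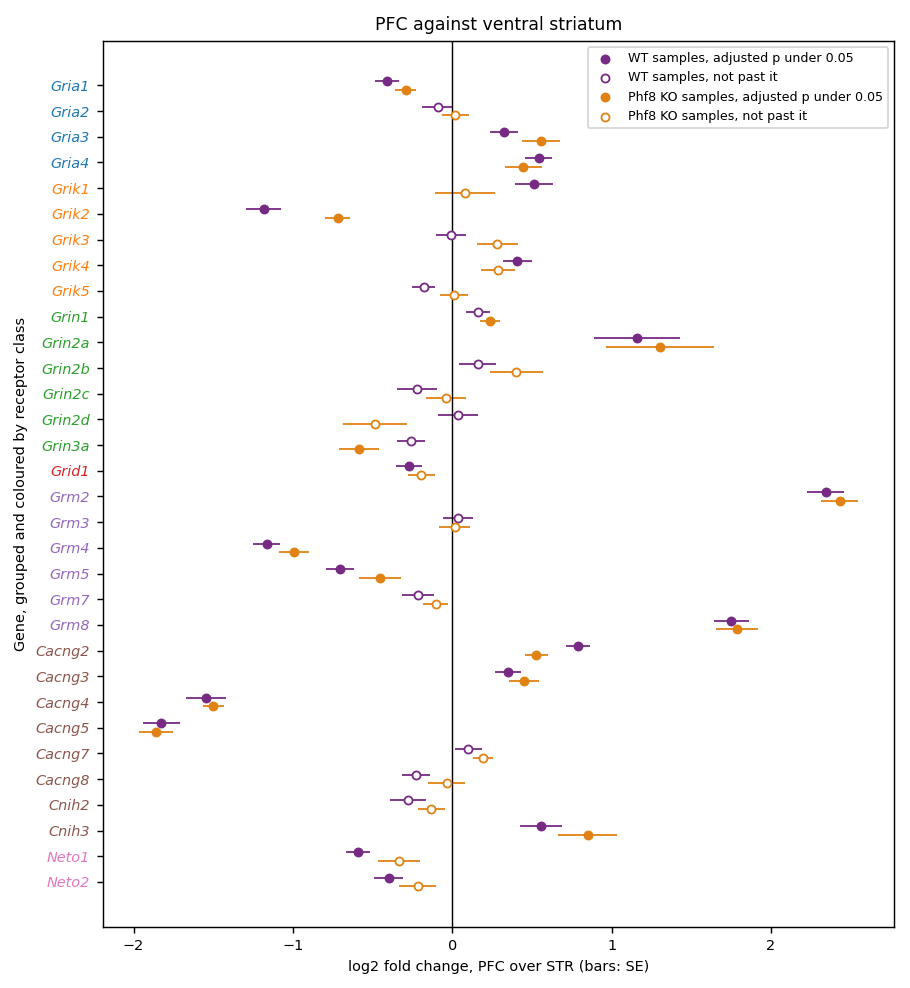
Log2 fold change of PFC over STR for the 32 tested members, with bars of 1 standard error, in WT (purple) and KO (orange). Filled points passed an adjusted p of 0.05. Grm2 lies furthest to the right at 2.34 in WT and 2.43 in KO, and Cacng5 furthest to the left at −1.82 and −1.86.

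Genes of the surrounding pathway were taken from 3 lists of 44 genes in all. Among 11 genes of glutamate transport and metabolism, 5 were higher in WT PFC and 1 was lower, beside 13% and 11.4% of all genes as above, the latter being Slc17a8 (−1.59), the vesicular transporter VGLUT3. Slc17a6 (1.12) and Slc17a7 (0.57), the vesicular transporters of subcortical and cortical projection neurons, and Gls2 (0.83), a glutaminase, were among those higher. Among 23 scaffold and anchoring genes of the postsynapse, 7 were higher and 0 lower, with Nptx1 at 1.01, Shank1 at 0.97 and Dlgap1 at 0.77. Nptx1 is a secreted pentraxin that clusters AMPA receptors, and Shank1 and Dlgap1 are scaffold proteins. Among 10 further AMPA receptor assembly and auxiliary genes, Frrs1l (0.59), needed for AMPA receptor assembly, was higher, and Shisa8 (−1.49), Shisa9 (−0.78), Shisa7 (−0.65) and Gsg1l (−0.46), all auxiliary subunits, were lower. In KO the counts were 2 higher and 3 lower, 10 and 0, and 3 and 2, beside 13.8% and 13.9% of all genes. In KO STR replicate 1 Slc17a7 was at 7.24 RPKM against 43.2 to 64.0 RPKM in the other STR samples, and Slc17a6 was at 13.9 RPKM against 3.03 to 6.03 RPKM.

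The levels in NPCs were examined next. In WT NPCs 20 of the 34 members averaged at least 1 RPKM and 11 at least 10 RPKM, and their sum lay between 299 and 354 RPKM. Cacng7 stood at 67.5, 44.7 and 63.8 RPKM, Neto2 at 40.5, 51.4 and 46.8 RPKM and Grik5 at 44.9, 36.5 and 44.0 RPKM, and these overlapped. Grm5 followed at 33.3, 35.3 and 33.6 RPKM and lay below every Grik5 sample. Cnih2 (23.5 ± 1.74 RPKM), Cacng4 (21.1 ± 4.75), Gria2 (16.0 ± 5.94), Grm3 (15.6 ± 2.25) and Gria3 (14 ± 3.09) came next. Of 33 pairs of neighbours, 3 were apart in all samples. At the other end, Grm2, Grm6 and Cacng2 had 0 counts in each of the 3 WT NPC libraries, and Grin2a, Cacng3 and Grm8 had at most 5.

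NPC replicate 2 differed from the others in several members. Gria4 stood at 23.3 RPKM in WT replicate 2 and at 6.23 and 2.66 RPKM in WT replicates 1 and 3. In KO it was at 10.4 RPKM in replicate 2 against 5.82 and 5.58 RPKM. Grik3 ran the other way, at 2.17 RPKM in WT replicate 2 against 12.3 and 9.68 RPKM, and at 4.56 RPKM in KO replicate 2 against 11.2 and 8.38 RPKM. Grin2c was also low there, at 1.62 RPKM in WT and 1.46 RPKM in KO, with 2.97 to 7.08 RPKM in the other 4. Mature oligodendrocyte markers were also low there, as given above, so Grik3 and Grin2c ran with them and Gria4 against them. Oligodendrocyte precursor markers, at 3548 CPM in WT and 3811 CPM in KO, lay within the 3183 to 3952 CPM of the other 4. Astrocyte markers were also lower there, at 2897 CPM in WT and 3893 CPM in KO against 4702 to 6724 CPM in the other 4 libraries, and so were progenitor markers, at 5619 and 6600 CPM against 7867 to 8427 CPM. The part of these cell types in the members' values was not tested.

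Against ESCs, the cultured cells of the earlier stage, 27 members had enough reads for the test, and 23 were higher in NPCs, 1 was lower and 3 did not pass, beside 71.2% of all 15938 genes tested (34.6% higher and 36.6% lower). The 7 members not tested were Grin2a, Grin3b, Grm2, Grm6, Grm8, Cacng2 and Cacng3. Many tested members had passed the read filter through their NPC level alone, so the count among them is not evidence for the set as a whole. Grm5, a receptor of cultured glial progenitors as well as neurons, had 3 counts over the WT ESC libraries and 12738 over those of NPCs, a ratio of 2514 after scaling to library size (exact 95% interval 860 to 12190). This interval and those that follow cover counting error only. Grm3 had no counts in either WT ESC library and was at least 342-fold higher in NPCs, with 3 counts over the ESC libraries as the floor. The kainate receptor gene Grik2 had a ratio of 195 (66.4 to 945) on 3 ESC counts and its partner Neto1 one of 587 (105 to 23218) on 1 count. Gria1, Grik1 and Grin2b, with 2, 1 and 1 counts in ESCs, had ratios of 51.5 (14 to 429), 27.8 (4.76 to 1122) and 75.8 (13.4 to 3016). Gria2, with 8 ESC counts, had a ratio of 683 (346 to 1582), and Grin3a, with 6, one of 201 (92.4 to 550). Grid1, with 10, and Cnih3, with 4, had ratios of 88.4 (48.0 to 185) and 20.4 (7.80 to 76.0). Of the genes with more ESC counts, Gria4 (7.0, SE 1.44), Cacng4 (5.65), Neto2 (4.49) and Grin2c (4.30) had the largest log2 fold changes.

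The other called members had log2 fold changes of 3.75 or less. Cacng7, the only member above 10 RPKM in ESCs, stood at 26.8 and 26.1 RPKM in WT ESCs and changed by 1.23 on the log2 scale (SE 0.19, edgeR adjusted p = 0.00259). Grik5 rose by 3.75 from 3.01 and 3.56 RPKM, Gria3 by 3.27, Cacng8 by 3.15, Cnih2 by 3.09, Grik4 by 2.82 and Grm4 by 1.76. Cacng5, with 9 ESC counts, had a ratio of 10.1 (5.16 to 22.4). Grin1 was the member lower in NPCs, with 1.47 and 1.14 RPKM in WT ESCs and 0.676, 0.268 and 0.601 RPKM in NPCs (log2 fold change −1.25, SE 0.41, edgeR adjusted p = 0.0377). Grik3, at 4.99 and 5.80 RPKM in WT ESCs, did not pass with all samples and was higher in NPCs without WT NPC replicate 2 (1.09, edgeR adjusted p = 0.00285), as was Grm7 (edgeR adjusted p = 0.00284). Grin2d did not pass, at 0.399 to 0.468 RPKM in ESCs and 0.390 to 0.421 RPKM in NPCs. The calls of Grin1, Grm4 and Cnih3 were lost without WT ESC replicate 1 (edgeR adjusted p = 0.146, 0.111 and 0.102) and without WT ESC replicate 2 (edgeR adjusted p = 0.0681, 0.0615 and 0.0758). The call of Grin1 was lost without WT NPC replicate 3 as well (edgeR adjusted p = 0.0676), and that of Gria3 without WT NPC replicate 2 (edgeR adjusted p = 0.0692). Gria3 followed the replicate number in ESCs, at 0.367 and 0.467 RPKM in WT and KO replicate 1 and at 2.66 and 3.16 RPKM in WT and KO replicate 2.

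WT PFC was also set against WT NPCs. Of 32 members tested, 24 were higher in PFC, 3 were lower and 5 did not pass, beside 77.1% of all 15957 genes tested (40% higher and 37.1% lower). Some members passed the read filter through PFC alone. This comparison shares its NPC libraries with the preceding one, and it sets a tissue against a culture. The NPC tables are named as counted without strand and the brain tables carry no such word, and reads on no gene made up 9.42 to 13.9% of the uniquely aligned reads in the cells and 10.2 to 16.8% in brain. The row of reads not aligned uniquely held 33.8 to 34.1% of the WT NPC libraries and 7.62 to 8.90% of the WT PFC libraries. The part of this difference in the members' values was not tested. Cacng2 was at least 1812-fold and Grm2 at least 1154-fold higher in PFC, with 3 counts over the 3 NPC libraries as the floor. Against 4 counts over the NPC libraries, Cacng3 had a ratio of 1175 (exact 95% counting interval 459 to 4317). Grm8, with 5 counts, all in replicate 3, and Grin2a, with 6, had ratios of 317 (136 to 979) and 92.1 (41.9 to 252). Grin2b (6.47), Gria1 (6.0), Grm7 (5.79), Grin1 (5.47), Grm4 (4.89), Cnih3 (4.84), Grik1 (3.91) and Grin2d (3.43) also had large log2 fold changes. The obligatory NMDA subunit gene Grin1 was thus at 22.4 to 23.4 RPKM in PFC and at 0.676 RPKM or less in NPCs.

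The 3 members higher in NPCs were Neto2, Cacng4 and Grm5. Astrocyte and oligodendrocyte precursor markers were also higher in NPCs than in brain, as given above. The part of these cell types in the members' values was not tested. Neto2 fell from 46.2 ± 5.44 RPKM in NPCs to 16.1 ± 1.09 RPKM in PFC (log2 fold change −1.51, SE 0.13). Cacng4 stood at 24.9, 15.8 and 22.6 RPKM in NPCs, above every PFC sample (−1.07, SE 0.18), and Grm5 exceeded every PFC sample (−1.0, SE 0.10). Grik5 (−0.15), Cacng7 (−0.01), Grin3a (0.03), Gria4 (1.22) and Grik3 (1.12) did not pass. Without NPC WT replicate 2, Gria4 (2.50), Grik3 (0.66) and Grik5 (−0.25, edgeR adjusted p = 0.0456) passed and 30 members were called. Gria2 (0.72, edgeR adjusted p = 0.0399) and Grin2c (1.44, edgeR adjusted p = 0.0313) were called with all samples. Each of these calls was lost without NPC WT replicate 3 (edgeR adjusted p = 0.0826 and 0.0815), without PFC WT replicate 2 (0.0535 and 0.0834) and without PFC WT replicate 3 (0.1 and 0.0575), and that of Gria2 also without PFC WT replicate 1 (0.0922). The make-up of the auxiliary subunits was that of neither brain region, since Cacng4 held 64.7, 71.1 and 69.0% of the summed RPKM of Cacng2, Cacng3, Cacng4 and Cacng8 in WT NPCs. Of the summed RPKM of Neto1 and Neto2, Neto2 held 90.2, 94.0 and 95.6% in NPCs and 64.8% in PFC. These shares were not tested.

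**Figure D4:**
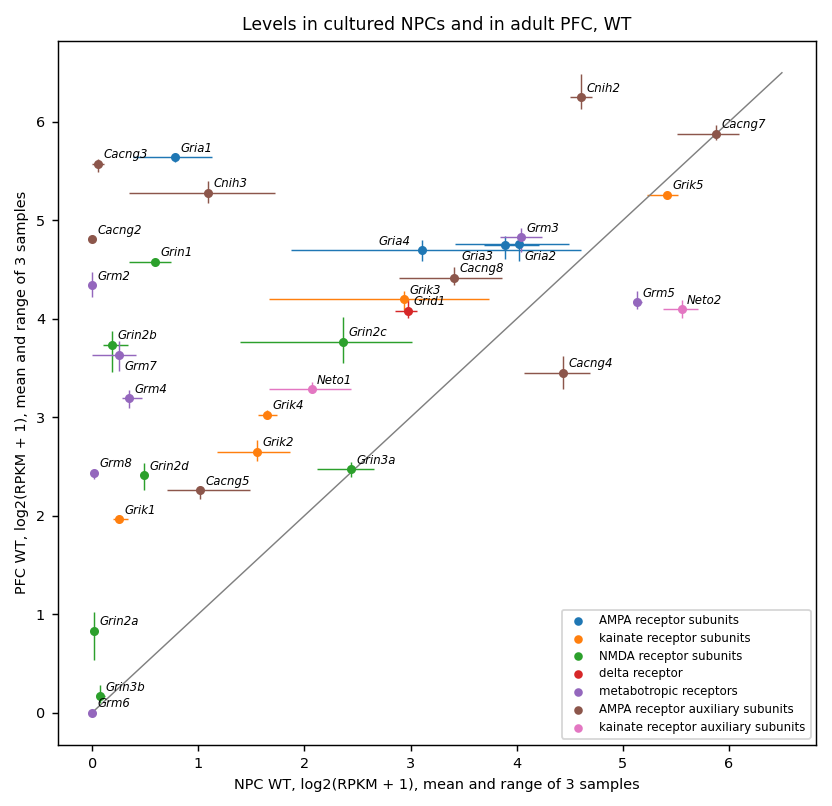
Mean level of each member in WT NPCs (horizontal) and WT PFC (vertical) as log2(RPKM + 1), with bars from the lowest to the highest of 3 samples and a line where both are equal. Neto2, Cacng4 and Grm5 lie well below the line, Cacng7, Grik5 and Grin3a lie near it, and Grm2 and Cacng2 lie at 0 on the NPC axis with 19.4 and 27.0 RPKM in PFC.

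The effect of the Phf8 deletion was then tested within each tissue. In PFC 1 of 32 members, Grik3, passed the test, beside 0.638% of all 15364 genes tested. Grik3 encodes the low-affinity kainate receptor subunit GluK3 (chr4:125490700-125714173, plus strand, GRCm38), whose promoter is printed above. It stood at 17.9, 18.4 and 16.0 RPKM in WT PFC and at 24.2, 21.9 and 24.5 RPKM in KO PFC. All KO samples were above all WT samples. The log2 fold change was 0.42 (SE 0.08, edgeR adjusted p = 0.0403), close to the threshold, and the call depended on single libraries. It was lost without WT replicate 1 (edgeR adjusted p = 0.0655), WT replicate 2 (edgeR adjusted p = 0.0773), KO replicate 1 (edgeR adjusted p = 0.159), KO replicate 2 (edgeR adjusted p = 0.117) or KO replicate 3 (edgeR adjusted p = 0.298), and kept without WT replicate 3 (edgeR adjusted p = 0.0382), while the fold change stayed between 0.37 and 0.48.

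Grm8, Grm5 and Grin3a had the next smallest p in PFC and did not pass. Grm8 stood at 4.56, 4.16 and 4.54 RPKM in WT and at 5.57, 5.55 and 5.73 RPKM in KO (log2 fold change 0.34, SE 0.08, edgeR adjusted p = 0.0982). Grm5 stood at 18.5, 16.1 and 16.4 RPKM in WT and at 21.4, 20.3 and 21.2 RPKM in KO (0.29, SE 0.07, edgeR adjusted p = 0.115). Grin3a stood at 4.58, 4.85 and 4.25 RPKM in WT and at 5.80, 5.41 and 5.94 RPKM in KO (0.31, SE 0.08, edgeR adjusted p = 0.12). KO and WT samples did not overlap for any of these 3. Cacng2 was the member with the lowest fold change, at 28.0, 26.7 and 26.4 RPKM in WT and 23.9, 23.9 and 23.0 RPKM in KO (−0.21, SE 0.07, edgeR adjusted p = 0.218).

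Over the 32 tested members of PFC, 25 had a positive log2 fold change, beside 44.1% of all genes, and 11 an unadjusted p under 0.05, beside 11.2%. KO and WT samples did not overlap for 11 members, of which 10 were higher in KO, beside 17.1% of all genes. The median log2 fold change was 0.12, beside −0.02 over all genes, and the range ran from −0.21 to 0.43. In these libraries mature oligodendrocyte markers summed to between 1462 and 1564 CPM in KO and between 1807 and 2365 CPM in WT, with 4 of 7 markers called lower. Cortical projection neuron markers summed to between 935 and 998 CPM in KO and between 804 and 1005 CPM in WT, and astrocyte markers to between 761 and 811 CPM in KO and between 840 and 888 CPM in WT. The part of these cell types in the members' values was not tested.

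In STR 0 of 32 members passed edgeR's quasi-likelihood test, beside 0% of all 15476 genes, and 6 members had an unadjusted p under 0.05, beside 8.7% of all genes. The smallest p was that of Grin3a, the GluN3A gene (chr4:49661611-49845744), which stood at 5.06, 5.82 and 5.24 RPKM in WT and at 7.93, 7.0 and 10.4 RPKM in KO. All KO samples were above all WT samples. The log2 fold change was 0.66 (SE 0.13, edgeR adjusted p = 0.292). It passed with DESeq2 (adjusted p = 0.00323), with edgeR's exact test (adjusted p = 0.00183) and in an edgeR fit of all 12 brain samples (adjusted p = 0.0469). These fits called 53, 104 and 13 of all genes in STR. Without KO STR replicate 1 the log2 fold change of Grin3a was 0.69 (edgeR adjusted p = 0.508). Grik4 (0.39, edgeR adjusted p = 0.414) and Grik1 (0.56, edgeR adjusted p = 0.469) came next. Without KO STR replicate 1 the fold change of Grik4 was 0.26 (edgeR adjusted p = 0.941). Grik1 stood at 3.93 RPKM in KO STR replicate 1 and at 2.43 and 2.41 RPKM in the other two KO samples, and its fold change was 0.28 without that library (edgeR adjusted p = 0.999). Grin2d behaved alike, at 8.18 RPKM in KO STR replicate 1 against 5.23 and 4.75 RPKM, with 0.55 with that library and 0.26 without it. That library is the one with hypothalamic markers at 202 CPM, thalamic markers at 181 CPM and low cortical and striatal markers. The part of these tissues in these values was not tested. Of the 32 members, 15 had a positive fold change, beside 50.6% of all genes, and KO and WT did not overlap for 4 (Grik1, Grik4, Grin2d and Grin3a), beside 13.2%. The positive count depended on single libraries, at 21 without KO STR replicate 1 and 12 without KO STR replicate 3.

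The effect of the deletion in PFC was compared with that in STR by an interaction term over the 12 brain samples. Here 0 of 32 members passed edgeR's quasi-likelihood test, beside 0.00624% of all genes, 2 had an unadjusted p under 0.05, beside 6.41%, and 0 were called by DESeq2. Grik2 had the smallest p. It differed by 0.47 on the log2 scale (SE 0.14, edgeR adjusted p = 0.62), with a KO effect of 0.20 in PFC and −0.25 in STR. Cacng2 differed by −0.25 (SE 0.10, edgeR adjusted p = 0.72), with −0.21 in PFC and 0.07 in STR. Grin2d followed at −0.51 (SE 0.25, edgeR adjusted p = 0.815), and at −0.25 without KO STR replicate 1 (edgeR adjusted p = 1.0). The smaller distance of Grik2 between the regions in KO was therefore not separated from sampling spread after correction over all genes.

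**Figure D5:**
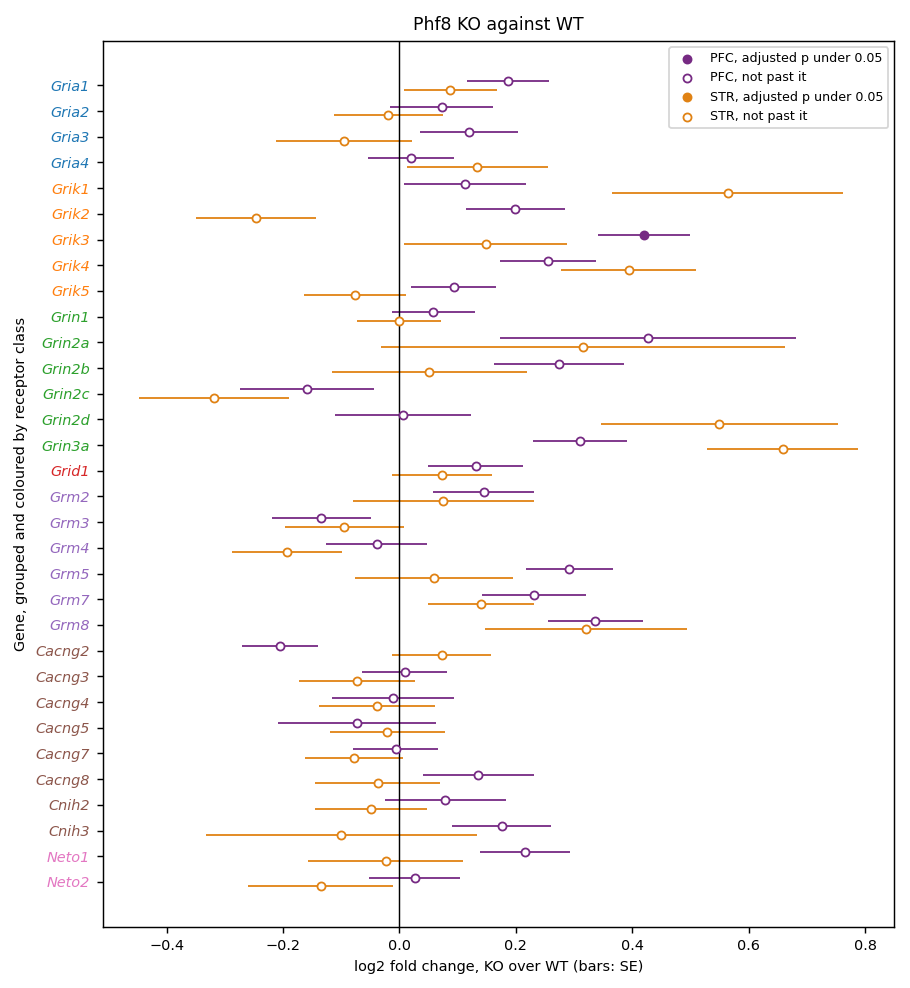
Log2 fold change of KO over WT for the 32 tested members with bars of 1 standard error, in PFC (purple) and STR (orange). The filled point, Grik3 in PFC at 0.42, is the only one with an edgeR adjusted p under 0.05, and 25 of the 32 PFC points lie above 0 against 15 in STR. The STR count was 21 without KO STR replicate 1 and 12 without KO STR replicate 3, fits that are not drawn.

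In NPCs 0 of 27 members passed edgeR's quasi-likelihood test, beside 0.00697% of all 14351 genes, and 1 had an unadjusted p under 0.05, beside 3.03% of all genes. DESeq2 and the fit with replicate numbers as a block also called 0. The member with the smallest p was Grm4, a low gene with 28, 14 and 18 counts in WT and 46, 40 and 36 counts in KO, whose log2 fold change was 1.03 (SE 0.31, edgeR adjusted p = 1.0). It was the 1 member of 27 whose KO and WT samples did not overlap, beside 8.17% of all genes. Cacng5 (1.0) and Cnih2 (−0.21) had the next smallest p, and Cacng5 was at 3.31 RPKM in KO replicate 2 against 1.38 and 1.78 RPKM in the other two KO samples. Without replicate 2 of both genotypes its fold change was 0.30. The abundant members stayed close between the genotypes, with Neto2 at 46.2 ± 5.44 RPKM in WT and 46.8 ± 3.30 RPKM in KO (log2 fold change 0.02, SE 0.12) and Grm5 at 34.1 ± 1.10 and 34.6 ± 6.12 RPKM (0.02, SE 0.14).

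In ESCs 13 members had enough reads, and 0 of them passed edgeR's quasi-likelihood test or had an unadjusted p under 0.05, beside 0% and 1.13% of all 15080 genes tested. DESeq2 also called 0. Grik5 stood at 3.01 and 3.56 RPKM in WT and at 4.52 and 4.04 RPKM in KO (log2 fold change 0.37, SE 0.16), Grik4 at 0.320 and 0.316 RPKM in WT and 0.549 and 0.396 RPKM in KO (0.56, SE 0.31), and Grik3 at 4.99 and 5.80 RPKM in WT and 4.92 and 4.52 RPKM in KO (−0.20, SE 0.13). The KO and WT samples did not overlap for these 3 of the 13 members, beside 21.3% of all genes, but with 2 samples in each group the spread is poorly known. Of the 44 pathway genes, 0 passed edgeR's quasi-likelihood test between KO and WT in any of the 4 tissues. An unadjusted p under 0.05 was found in PFC for 1 transport, 4 scaffold and 3 assembly genes, in STR for 2 of each list, in NPCs for 2 scaffold genes and in ESCs for 1 assembly gene, beside 11.2%, 8.7%, 3.03% and 1.13% of all genes. Other tests were not counted for these lists.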

How the data were processed

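RNA-seq libraries were prepared from ESCs, NPCs, PFC and STR with a TruSeq RNA kit that keeps no strand. Base calling was done with CASAVA 1.7 and alignment to mm10 with STAR, and the authors deposited raw HTSeq counts per gene on the Ensembl 75 annotation. Rows that name no gene held between 20.2% and 53.1% of a library and were left out. Of 39179 identifiers, 37693 matched GENCODE M21, which gave symbols, coordinates and exon lengths.

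Counts were tested with edgeR 4.0.16 in R 4.3.3 (filterByExpr, TMM, robust quasi-likelihood fit of the groups compared, Benjamini-Hochberg over all genes tested, adjusted p under 0.05), and standard errors were taken from the F statistic. The scripts were tested on simulated data. RPKM values, scaled by TMM over all 22 libraries, were used for levels between genes. DESeq2 1.42.0, edgeR's exact test, other scalings and filters, a stricter threshold and leaving out samples were tried as alternatives. Libraries of 5898286 to 15539811 counted reads set the precision of low genes such as Grin2a. Replicates of a group differed by 1.83 to 37.3 in chi-square per degree of freedom, so none was a copy.

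Replicate numbers may pair PFC with STR samples and KO with WT NPCs. Deviations of same-numbered PFC and STR samples correlated at 0.359, 0.186 and 0.392 in WT and at 0.173, 0.189 and 0.143 in KO. Those of same-numbered KO and WT NPCs correlated at 0.569, 0.705 and 0.524. This is a hint from the data, since the labels do not say what a number marks. The main tests did not use it and treated the samples as unpaired. Fits with replicate numbers as a block were run as alternatives.

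Members and lists were chosen with earlier results of these data known. Values in full are given for members called with more than 2-fold difference between PFC and STR in WT and for leading members of each class, for members called between KO and WT or else the 3 with the smallest p, and for members called between NPCs and ESCs or at 1 RPKM or more in NPCs. Pathway genes named, and other members, were added after their values were seen.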

Additional observations from a re-analysis of the deposited data

Results flagged for a closer look

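Grik3 was flagged because its KO and WT samples did not overlap in PFC or in ESCs and lay in opposite directions. In PFC every KO sample was above every WT sample (log2 fold change 0.42), and in ESCs every KO sample was below every WT sample (−0.20, with 4.99 and 5.80 RPKM in WT and 4.92 and 4.52 RPKM in KO). The difference between the tissues was not tested, and the change in ESCs did not pass the test. KO and WT samples did not overlap for 21.3% of all genes in ESCs and for 17.1% in PFC. The call in PFC was lost when single libraries were left out, as given above. An opposite effect in the 2 tissues is therefore not established.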

How the results depend on the processing

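No member called with all samples reversed under the alternatives run. Fold changes of members not called did change sign in places, as for Grin3a between PFC and NPCs, from 0.03 to −0.14 without WT NPC replicate 2, and for Gria4 between KO and WT NPCs, from −0.57 to 0.73 without WT replicate 2 and to 0.38 without replicate 2 of both genotypes. Requiring a log2 fold change over 1 as well reduced the members called between PFC and STR from 19 to 7 in WT and from 16 to 5 in KO. Leaving out 1 sample gave 16 to 21 in WT and 12 to 19 in KO. Between KO and WT in PFC, the 1 call became 0 with total counts and no scaling (Grik3 adjusted p = 0.0529 from edgeR), 0 with a log2 fold change over 1, 0 in the fit of all 12 brain samples (adjusted p = 0.169 from edgeR), 2 with no filter on low counts (Grm5 added) and 4 with edgeR's exact test (Grm8, Grm5 and Grin3a added), and lay between 0 and 1 when a sample was left out. In PFC the count over all genes went from 98 to 379 with no filter and to 376 with the exact test. In STR the 0 calls became 1, Grin3a, with DESeq2, with the exact test and in the fit of all 12 brain samples. Those 3 fits called 53, 104 and 13 of all genes in STR. In NPCs, in ESCs and for the difference between PFC and STR, 0 members were called under every alternative run. Counts stayed at 21 to 25 between NPCs and ESCs and at 25 to 30 between PFC and NPCs when a sample was left out. The cause of these changes was not tested.

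With replicate numbers as a block, 22 members were called between PFC and STR in WT, 20 in KO, 21 between NPCs and ESCs (Cnih3, Grin1 and Grm4 lost) and 26 between PFC and NPCs (Grin2c lost, adjusted p = 0.0549 from edgeR). The count over all genes went from 3791 to 5405 in WT and from 4301 to 4761 in KO between PFC and STR. It fell from 11347 to 8675 between NPCs and ESCs and from 12299 to 11896 between PFC and NPCs. Between KO and WT the block left 1 call in PFC and 0 in STR, NPCs and ESCs, and 0 for the difference between PFC and STR. Same-numbered KO and WT samples correlated at 0.055, −0.032 and 0.041 in PFC and at 0.065, −0.022 and 0.133 in STR. These values give no hint of a pairing there, but with so few samples they cannot exclude it. In ESCs, with 2 pairs, they correlated at 0.876, and the block called 513 of all genes (308 higher and 205 lower in KO) against 0 without it, none of them members. Without scaling, the median log2 fold change of all genes between PFC and NPCs moved from 0.04 to 0.36, and the genes called went from 6378 higher and 5921 lower to 7615 higher and 4505 lower. The fit without replicate 2 of both NPC genotypes, chosen after seeing the data, also called 0. The 2 ESC samples of a genotype and the low counts of Grin2a, Grm4 in NPCs and the ESC members limit what could be detected.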
